A study of Mus musculus with 5 samples.

Results

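The comparison described here sets the cells washed out of the mouse peritoneal cavity after an injection of ovalbumin together with AEPS against the same kind of cells after an injection of PBS. AEPS, a root polysaccharide of the kiwifruit relative Actinidia eriantha, is studied as a vaccine adjuvant, ovalbumin (OVA) is a model protein antigen, and PBS is the buffer that served as the vehicle. The mice were female BALB/c animals injected into the peritoneal cavity, and the cells were taken for RNA 2 h later. The OVA+AEPS injection held 25 µg OVA and 50 µg AEPS, and the PBS injection held neither. The 3 other injections of the series were 50 µg AEPS alone, 25 µg OVA alone, and 25 µg OVA with 200 µg of the aluminium adjuvant alum. The labels give no genotype or age, and do not say whether cells of several mice were pooled. Of the 5 arrays of the series, the 2 that carry this comparison are 1 for OVA+AEPS and 1 for PBS, so no value could be checked against replicates and no test was run. Of 20121 genes with a value on every array, 14996 had a probe that the scanner software marked as well above background on at least 1 of the 2 arrays, and these are the genes compared.

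Cells that meet a microbial or foreign product use pattern recognition receptors, which switch on the transcription factors NF-kB and IRF3. NF-kB drives genes of chemokines, cytokines and its own inhibitors, many of which are induced early. IRF3 drives interferon beta, which acts back on the cells through its receptor, the kinases JAK1 and TYK2, and a transcription factor complex that binds a DNA element called the interferon-stimulated response element (ISRE). The resident cells of the peritoneal cavity are mostly large macrophages and B cells, with mast cells and mesothelial cells of the lining, and neutrophils enter it early in inflammation.

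Because interferon-stimulated genes made up most of the largest differences below, the promoters of 3 of them, Ifit1, Ifit3 and Cxcl10, are shown. That of Edn1 is added as the gene with the largest difference, and that of Cxcl1 as a chemokine gene that NF-kB is known to drive. Each run is 250 bases before and 50 bases after a transcription start, 5′ to 3′ on the strand of the gene, from RefSeq on GRCm38.p6, which is not the BALB/c genome. Capitals mark matches, on either strand, to the core letters of an ISRE (GAAA, any 2 bases, GAAA) or of a kB element bound by NF-kB (GGGA, any 2 bases, TTCC). Ifit1 lies at chr19:34640639-34640938 on the plus strand, Ifit3 at chr19:34583279-34583578 on the plus strand, Cxcl10 at chr5:92348840-92349139 on the minus strand, Edn1 at chr13:42301226-42301525 on the plus strand and Cxcl1 at chr5:90890995-90891294 on the plus strand.
Ifit1: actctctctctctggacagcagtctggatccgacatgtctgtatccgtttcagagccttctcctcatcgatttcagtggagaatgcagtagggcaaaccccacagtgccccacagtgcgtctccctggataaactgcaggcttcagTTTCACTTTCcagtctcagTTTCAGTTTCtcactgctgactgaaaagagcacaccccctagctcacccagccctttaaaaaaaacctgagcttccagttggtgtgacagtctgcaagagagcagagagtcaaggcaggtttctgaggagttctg
Ifit3: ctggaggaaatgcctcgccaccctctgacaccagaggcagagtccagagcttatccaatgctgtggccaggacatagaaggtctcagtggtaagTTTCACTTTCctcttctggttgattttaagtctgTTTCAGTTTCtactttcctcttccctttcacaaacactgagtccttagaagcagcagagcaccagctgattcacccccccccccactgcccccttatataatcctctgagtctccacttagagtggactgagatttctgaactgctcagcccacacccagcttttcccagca
Cxcl10: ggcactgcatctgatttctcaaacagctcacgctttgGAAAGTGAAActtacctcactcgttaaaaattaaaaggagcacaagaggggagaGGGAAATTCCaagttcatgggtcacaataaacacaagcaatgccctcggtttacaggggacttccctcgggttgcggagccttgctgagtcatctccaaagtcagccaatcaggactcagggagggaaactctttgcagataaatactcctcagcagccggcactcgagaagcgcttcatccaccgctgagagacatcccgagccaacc
Edn1: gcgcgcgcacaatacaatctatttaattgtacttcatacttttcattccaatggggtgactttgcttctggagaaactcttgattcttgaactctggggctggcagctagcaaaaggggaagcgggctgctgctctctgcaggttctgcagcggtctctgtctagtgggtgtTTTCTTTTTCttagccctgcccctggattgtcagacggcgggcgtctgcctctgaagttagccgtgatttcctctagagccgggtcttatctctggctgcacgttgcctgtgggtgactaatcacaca
Cxcl1: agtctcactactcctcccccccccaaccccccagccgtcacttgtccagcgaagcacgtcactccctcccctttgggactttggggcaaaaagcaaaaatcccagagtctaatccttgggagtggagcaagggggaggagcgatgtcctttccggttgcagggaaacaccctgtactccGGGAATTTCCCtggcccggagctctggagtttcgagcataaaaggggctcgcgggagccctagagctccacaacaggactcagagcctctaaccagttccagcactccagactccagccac
The promoters of Ifit1 and Ifit3 held 2 ISRE matches each, those of Cxcl10 and Edn1 held 1 each, and Cxcl10 also held 1 kB match. The Cxcl1 promoter held 2 kB matches that overlap. Of 27025 genes with a promoter in the table, 4.0% held an ISRE match and 1.6% a kB match. A match describes these letters only, and the share stands beside some of the gene groups below. Of the genes at least 2-fold higher, 8.6% of those in the promoter table held an ISRE match and 2.4% a kB match. For genes at least 2-fold lower these shares were 3.1% and 2.1%, and for all genes compared 3.9% and 1.8%. An ISRE match was held by 4 of 14 nucleic acid sensors. A kB match was held by 0 of 9 CC chemokines and 1 of 27 neutrophil markers.

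A level is the log2 signal of a gene's probe minus the 75th percentile of that array, so level 0 is that percentile, and levels are compared between arrays and not between genes. A difference is OVA+AEPS minus PBS, and its technical SE, from the scanner's error for each spot, had a median of 0.20; it holds nothing of the variation among mice or hybridisations. All arrays lay on 1 slide, with the PBS array alone in slide row 1 and the 4 others in row 2, so slide row and injection cannot be told apart. Between 56.7% and 60.0% of probes per array were well above background, and no spot was saturated. PBS and OVA+Alum shared slide column 4, and on each of these arrays 163 genes read at least 2-fold below every one of the other 3. These are called slide column 4 genes below. By this definition they read lower on PBS than on OVA+AEPS, so their presence among the genes called higher (156 of them) is no result. The part of the slide position in those differences was not tested.

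The OVA+AEPS array also held groups of adjacent bright spots, found after the data were seen. Of 549 spots there that were dim on the other arrays and at least 4-fold above their median, 299 lay in such groups, against 9 of 310 on the PBS array. The spots within reach of such a group, each with at least 3 bright neighbours within 3 rows and 2 columns, numbered 2098 of 59305 (3.54%) on OVA+AEPS and 290 (0.489%) on PBS. The AEPS and OVA arrays held 2305 and 2342 such spots, and the OVA+Alum array 213. A probe with a spot in a bright patch stood for 658 of the genes compared (4.39%) on OVA+AEPS. Such genes made up 22.7% of the 387 genes well above background on OVA+AEPS and not on PBS, but 1 of the 17 genes that were at least 16-fold higher and well above background on both arrays. Named genes with a spot in a patch on OVA+AEPS or PBS are marked as such below.

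**Figure D1:**
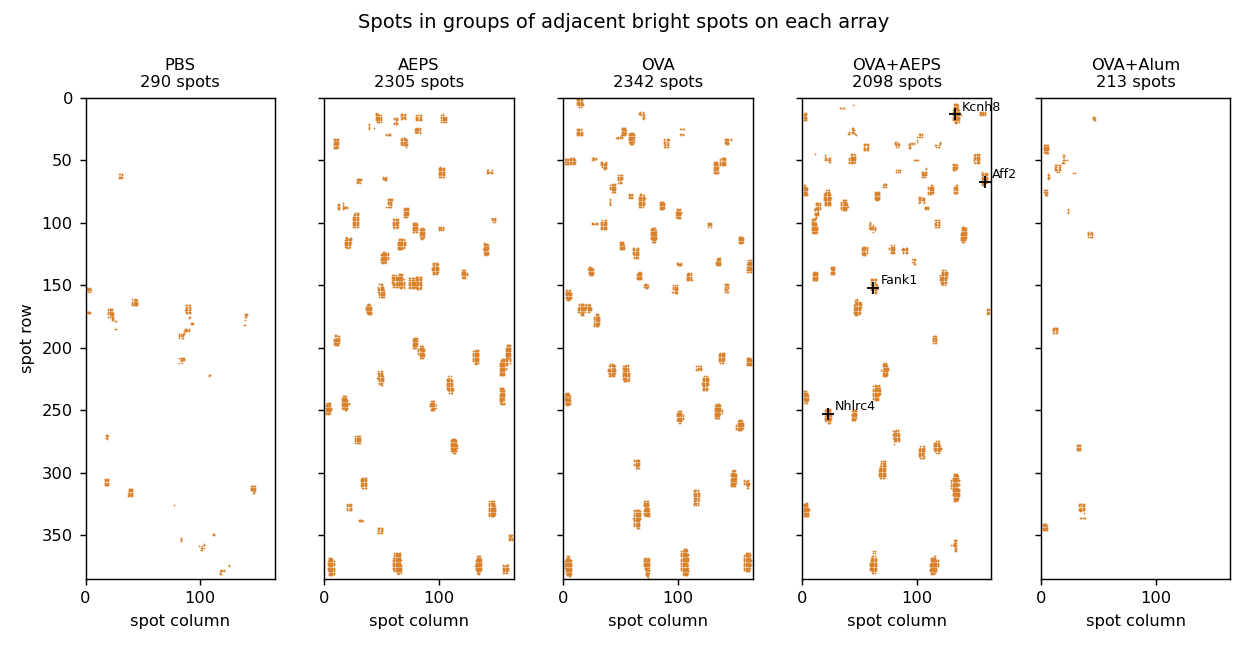
Each panel is 1 array, with spot column across and spot row down, and each point is a spot that had at least 3 neighbours that were dim on the other arrays and at least 4-fold brighter on this one. The AEPS, OVA and OVA+AEPS arrays held 2305, 2342 and 2098 such spots in compact blocks, and PBS and OVA+Alum 290 and 213; crosses on the OVA+AEPS panel are the spots of Aff2, Fank1, Nhlrc4 and Kcnh8.

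On the OVA+AEPS array 1244 genes (8.30% of those compared) exceeded their PBS level by 2-fold or more, and 927 (6.18%) lay 2-fold or more below it. Higher genes were thus 57.3% of those called. The counts of each gene list below are to be read against 8.30% higher and 6.18% lower. At 4-fold the numbers were 371 and 167, at 8-fold 148 and 45, and at 16-fold 65 and 9, so the share of higher genes grew with the size of the difference, although 29 of the 65 had a spot in a bright patch on OVA+AEPS. Among the 14025 genes well above background on both arrays, 989 (7.05%) were higher and 652 (4.65%) lower, and 387 and 584 genes were well above background on the OVA+AEPS or the PBS array alone. The split depends on the scaling. With the arrays scaled to the spike-in probes, which moved the median of all genes by 0.41, 84.9% of called genes were higher, and with a normexp background correction and quantile normalization 69.2% were. Without spots in bright patches 1079 genes were higher and 902 lower. Another probe of the gene, above background, was available for 281 higher genes, and it passed 2-fold in the same direction for 175 and in the opposite direction for 3. For lower genes these numbers were 139, 66 and 4.

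**Figure D2:**
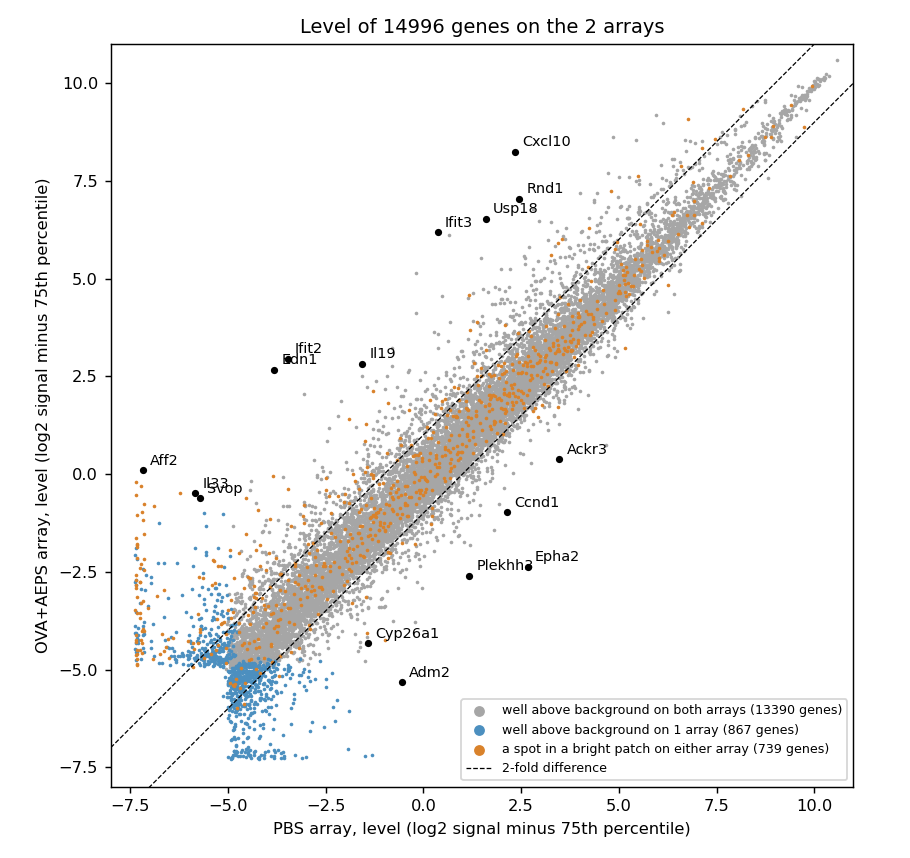
Each point is 1 of the 14996 genes compared, with its level on the PBS array across and on the OVA+AEPS array up, both in log2 units, and dashed lines mark a 2-fold difference. Some of the genes with a spot in a bright patch (orange) form a column at the left, where the PBS level is near the floor. Of the 658 genes compared with such a spot on OVA+AEPS, 88 were well above background there and not on PBS. Cxcl10, Ifit3, Usp18 and Rnd1 stand far above the upper line although both arrays measured them.

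The largest differences were those of antiviral genes and a few signalling genes. Among genes that passed the background flag on both arrays, 15 are given for each direction. The upper 15 spanned 4.07 to 6.48 and were, in falling order, Edn1, Ifit2, Cxcl10, Ifit3, Ifit1, Ifit3b, Ifit1bl1, Usp18, Rnd1, Il19, Cmpk2, Lrrc4, Ifih1, Ifi214 and Rsad2. Of these, Edn1, Ifit2, Ifit1bl1, Lrrc4 and Ifi214 are slide column 4 genes. Of the upper 15, 13 were in the promoter table, and 10 held an ISRE match, against 0 of 12 in the lower 15. Edn1, the precursor of the vasoconstrictor endothelin 1, read -3.81 on PBS and 2.66 on OVA+AEPS, a difference of 6.48 (technical SE 0.24). It read 2.13 on AEPS, 0.94 on OVA and -0.97 on OVA+Alum, so PBS was the lowest of the 5 arrays and OVA+AEPS the highest. A spot of its probe, which was printed 10 times, lay in a bright patch on OVA+AEPS. Cxcl10, a chemokine for activated T cells and NK cells, read 2.35 on PBS, 4.60 on OVA+Alum, 5.45 on OVA, 8.17 on AEPS and 8.24 on OVA+AEPS. Its difference was 5.89 (technical SE 0.20), and the 2 arrays with AEPS were apart from the other 3. Rnd1, a small GTPase that acts on the cytoskeleton, read 2.45 on PBS and 7.04 on OVA+AEPS, a difference of 4.59, with a second probe at 4.80. It was also high on AEPS (6.76), OVA (5.54) and OVA+Alum (5.49), so that here the PBS array stood apart from all the others. Il19, a cytokine of the interleukin 10 family, read -1.57 on PBS and 2.82 on OVA+AEPS, with 2.75 on AEPS and about 0 on the remaining arrays (-0.01 on OVA, -0.19 on OVA+Alum).

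**Figure D3:**
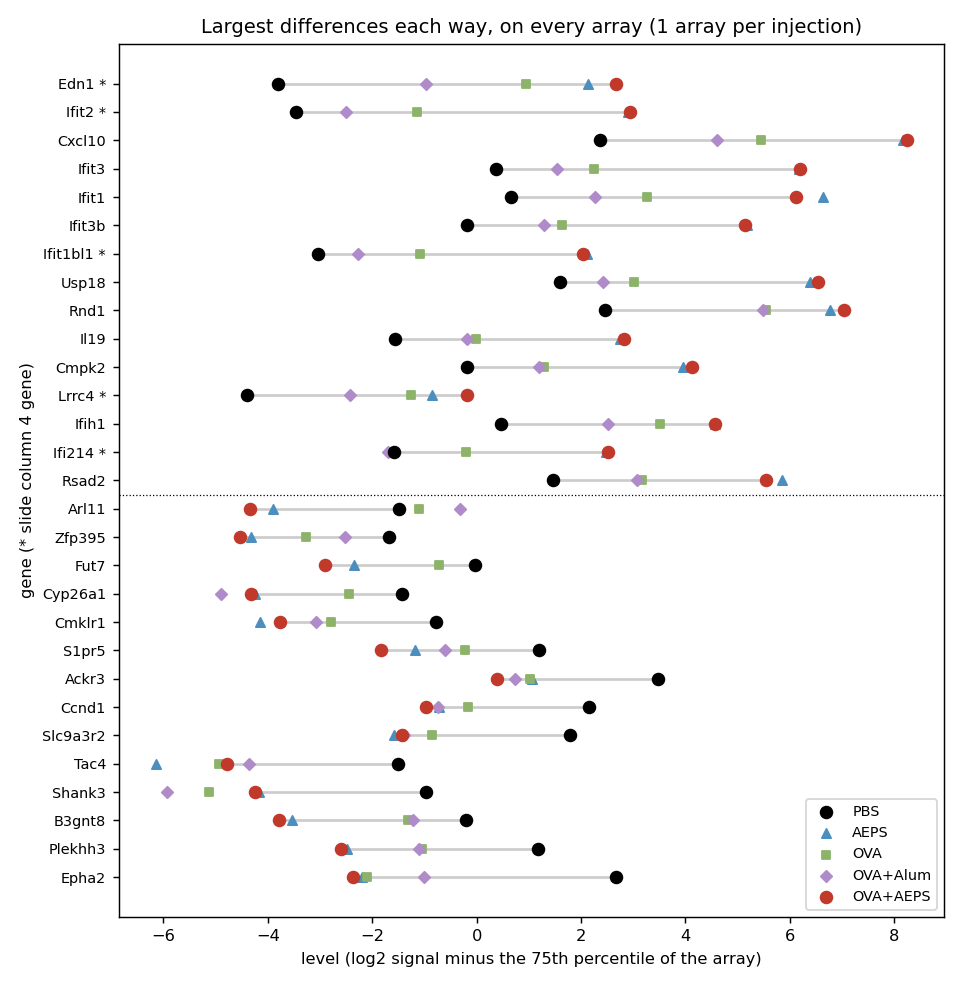
Level of the genes with the largest differences, the 15 highest and all but 1 of the 15 lowest, among genes that passed the background flag on both arrays, on each of the 5 arrays (1 point per array, log2 units, no replicates). Red (OVA+AEPS) and blue (AEPS) points lie close together for most genes, and PBS (black) is the lowest array for the upper genes apart from Ifi214 and the highest for the lower genes apart from Arl11 and Fut7.

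The antiviral effectors are proteins that block steps of viral replication and are made in response to interferon. Of 46 compared, 39 passed 2-fold upward and none downward, against 8.30% and 6.18% of all genes, and the median of the list lay 2.48 above that of all genes compared (-0.15). Of 39 in the promoter table, 17 held an ISRE match. The IFIT genes, whose products bind viral RNA, had the largest values. Ifit1 read 0.65 on PBS and 6.11 on OVA+AEPS (difference 5.46), and Ifit3 read 0.36 and 6.19 (5.83). Both were high on AEPS as well (6.63 and 6.17) and lower on OVA (3.25 and 2.24) and OVA+Alum (2.26 and 1.53). Ifit3b, a near-identical copy of Ifit3 whose signal a probe may not tell from it, read -0.19 and 5.14. Ifit2 read -3.47 on PBS and 2.95 on OVA+AEPS, and only -2.51 on OVA+Alum and -1.14 on OVA, which makes it a slide column 4 gene. Usp18, which removes the ubiquitin-like ISG15 from proteins and dampens interferon receptor signalling, read 1.60 on PBS, 2.42 on OVA+Alum, 3.01 on OVA, 6.39 on AEPS and 6.53 on OVA+AEPS. Rsad2, the radical enzyme viperin, read 1.47 and 5.54, and Cmpk2, the nucleotide kinase gene beside it on the chromosome, -0.19 and 4.12. For these genes too the 2 arrays with AEPS were the highest, with the spot of Cmpk2 in a bright patch on AEPS. Set against AEPS alone, 0 of the 46 genes passed 2-fold in either direction on OVA+AEPS, where 2.06% of 14692 genes were higher and 1.88% lower. Against OVA alone 36 of the 46 were higher and none lower, beside 4.08% and 3.64% of 14904 genes.

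Interferon-inducible GTPases, which attack the vacuoles of intracellular microbes, were higher as well. Of 17 compared, 16 passed 2-fold upward and none downward, and the relative median was 2.65. Of the 10 in the promoter table, 9 held an ISRE match. Tgtp2 read 2.81 on PBS and 6.78 on OVA+AEPS (difference 3.97), Irgm1 2.95 and 6.46 (3.51), and Ifi47 4.73 and 7.69 (2.96). A further probe of Tgtp2 differed by 2.31. All 3 read about the same on AEPS (6.89, 6.50 and 7.67) and lay at or below 5.77 on OVA and OVA+Alum. Tgtp1, a near-identical neighbour of Tgtp2, read -3.85 and -0.06, but its 1 spot lay in a bright patch on OVA+AEPS, and it was 1.20 higher there than on AEPS.

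Nucleic acid sensors, which detect foreign or misplaced RNA and DNA, were higher in 12 of 19 and lower in 1, with a relative median of 1.66. Ifih1, the RNA sensor MDA5, read 0.47 on PBS, 2.52 on OVA+Alum, 3.51 on OVA, 4.56 on AEPS and 4.57 on OVA+AEPS. Zbp1, a sensor of left-handed nucleic acids, read 4.36 on PBS and 6.96 on OVA+AEPS, and Ifi204 of the PYHIN family 3.26 and 6.44. The PYHIN genes Ifi211 and Ifi214 read 1.28 and -1.58 on PBS, 4.63 and 2.51 on OVA+AEPS, and 1.51 and -1.70 on OVA+Alum; both are slide column 4 genes. The gene called lower was Sting1, the adaptor of cytosolic DNA sensing, at 5.10 on PBS and 4.02 on OVA+AEPS, singled out after its values were seen.

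The signalling genes above these effectors differed less. Of 18 kinases and transcription factors of interferon signalling, 7 passed 2-fold upward and none downward, with a relative median of 0.66. Stat2 read 3.48 on PBS and 5.56 on OVA+AEPS, Batf2 0.96 and 3.15, and Jak2, a slide column 4 gene, 2.05 and 4.39. Among interferon genes and their receptors 3 of 18 were higher and none lower. Ifng read -0.21 on PBS and 1.53 on OVA+AEPS, and Ifnlr1, a receptor chain for lambda interferons, -1.41 and 0.51. Both were higher still on OVA+Alum (1.84 and 1.56). Ifnb1, interferon beta, was well above background on OVA+AEPS (-3.08) and not on PBS, which gives at least 4.15-fold. It was also well above background on OVA (-3.29) and AEPS (-3.73), so OVA alone read close to OVA+AEPS and above AEPS. On OVA+Alum it was not well above background, and it is a slide column 4 gene. Ifna11 read -2.98 on PBS and -3.79 on OVA+AEPS.

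NF-kB subunits and the inhibitors that NF-kB induces against itself were higher in 9 of 21 and lower in none, with a relative median of 1.08. Of 17 in the promoter table, 3 held a kB match. Tnfaip3, the ubiquitin-editing enzyme A20, read 5.01 on PBS, 6.33 on OVA, 6.43 on OVA+Alum, 7.43 on AEPS and 7.59 on OVA+AEPS. Nfkbiz, a nuclear IkB protein, read -0.09 and 1.58 on PBS and OVA+AEPS, and Zc3h12a, an RNase that degrades cytokine mRNA, 1.67 and 3.28. Tnip3, an A20-binding protein and a slide column 4 gene, read -0.36 and 2.65, with a further probe that differed by 3.67.

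Phosphatases, SOCS proteins and other brakes on signalling were higher in 8 of 23 and lower in 1. Socs1, which blocks JAK kinases, read 3.57 on PBS, 4.08 on OVA, 4.76 on OVA+Alum, 5.77 on AEPS and 6.10 on OVA+AEPS. Dusp2, a phosphatase of MAP kinases, read 5.43 and 7.51 on PBS and OVA+AEPS. Dusp6, a phosphatase of ERK, was lower, at 5.17 on PBS and 3.22 on OVA+AEPS, with 3.08 on AEPS, although its spot lay in a bright patch on OVA+AEPS. Immediate early transcription factors were mixed, with 7 of 28 higher and 4 lower. Myc read 4.10 and 5.67 on PBS and OVA+AEPS and Atf3 2.99 and 4.27, while Klf10 read 3.15 and 1.30 and Nr4a2 -0.78 and -2.27, with a further probe of Nr4a2 that differed by -0.71.

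Chemokines that recruit neutrophils were higher in 4 of 7, with a relative median of 1.98, and 3 of 6 in the promoter table held a kB match. Cxcl1 read 6.69 on PBS, 6.98 on OVA+Alum, 7.65 on OVA, 8.38 on AEPS and 8.55 on OVA+AEPS, a difference of 1.86. Cxcl5 read -2.45 and 0.84 on PBS and OVA+AEPS, Cxcl3 3.35 and 5.47, and Cxcl2 5.04 and 6.87. PBS was the lowest of the 5 arrays for all 4 of these genes and OVA+AEPS the highest. However, OVA+AEPS exceeded AEPS by only 0.02 for Cxcl3, 0.12 for Cxcl2, 0.17 for Cxcl1 and 0.29 for Cxcl5. All but the last lay below the median technical SE of 0.20. The 2 genes called lower were Ppbp, the platelet basic protein, and Cxcl15, which were not well above background on OVA+AEPS and were at least 1.17-fold and 2.24-fold lower there.

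Among CC chemokines, which recruit monocytes and lymphocytes, 7 of 14 were higher and none lower, with a relative median of 1.07, or 0.49 with no filter on dim probes. Ccl4 read 5.45 on PBS and 8.56 on OVA+AEPS (difference 3.11), Ccl7 2.60 and 5.51 (2.91), and Ccl3 5.53 and 7.52 (1.99). Their levels on AEPS (8.57, 5.47 and 7.54) were within the technical SE of those on OVA+AEPS. On OVA (6.94, 2.95 and 5.89) and OVA+Alum (7.38, 3.30 and 6.06) they lay between PBS and the arrays with AEPS. Cxcl9, which acts on the same receptor as Cxcl10, read -1.12 on PBS and 0.72 on OVA+AEPS, whereas Cxcl14, a chemokine made mainly by epithelium, was lower, at 3.35 and 1.48.

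Receptors for chemoattractants were more often lower than higher, with 8 of 28 lower, 5 higher and a relative median of -0.31. Ackr3, a scavenging receptor for Cxcl12, read 3.48 on PBS and 0.39 on OVA+AEPS (difference -3.09), Cmklr1, the chemerin receptor, -0.77 and -3.77 (-2.99), and Cx3cr1, the fractalkine receptor, 0.91 and -1.57 (-2.48). C3ar1, the receptor for complement C3a, read 2.06 and -0.35. The PBS array was the highest of the 5 for all 4. The other arrays lay close together for Ackr3, at 0.39 to 1.05, but were spread for Cx3cr1, at -1.57 to -0.33. S1pr5, a receptor for sphingosine 1-phosphate outside this list, read 1.19 on PBS, -0.23 on OVA, -0.61 on OVA+Alum, -1.18 on AEPS and -1.83 on OVA+AEPS.

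Cytokine genes were higher across several families. In the interleukin 1 family with its receptors, 10 of 14 were higher and none lower, with a relative median of 1.57. Il33, an alarmin of lining cells, was not well above background on PBS and read -0.50 on OVA+AEPS, at least 24.9-fold higher, with 0.06 on AEPS, -0.96 on OVA+Alum and -2.24 on OVA. Its spot lay in no bright patch. Il1f9 (interleukin 36 gamma) read 0.62 on PBS and 3.40 on OVA+AEPS, and Il1rn, the receptor antagonist, 1.49 and 4.05. Both were also high on OVA+Alum (3.32 and 3.72). Il1a read 0.04 and 2.62 on PBS and OVA+AEPS but -0.61 on OVA+Alum, a slide column 4 gene.

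The interleukin 6 family with its receptors was higher in 6 of 13, the interleukin 10 and 12 families in 4 of 10, and the gamma chain and T helper cytokines in 4 of 16, with none lower in any of them. Osmr, the oncostatin M receptor, read -2.59 on PBS and 0.18 on OVA+AEPS. Il23a, a subunit of interleukin 23, read -2.68 on PBS, -2.77 on OVA, -3.32 on OVA+Alum, -0.46 on OVA+AEPS and -0.15 on AEPS, so only the 2 arrays with AEPS were high. Il15, which sustains NK cells and memory T cells, read -2.42 on PBS, -0.31 on OVA+Alum, 0.01 on OVA, 1.18 on OVA+AEPS and 1.21 on AEPS. Its receptor chain Il15ra read 3.80 on PBS and 5.54 on OVA+AEPS, with a further probe that differed by 2.69. Lif, of the interleukin 6 family, read -3.82 on PBS and -2.26 on OVA+AEPS, and was not well above background on the other 3 arrays.

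Of 21 genes of the tumour necrosis factor superfamily 9 were higher and none lower. Tnfsf15 was at least 17.5-fold higher, at -1.01 on OVA+AEPS and not well above background on PBS. Tnfsf9, the ligand of the co-stimulatory receptor 4-1BB, read 1.54 on PBS and 4.72 on OVA+AEPS, and Tnfsf10 (TRAIL) -0.99 and 1.47. Among colony-stimulating factors and receptors 1 of 10 was higher, near the 8.30% of all genes. This was Csf3, the neutrophil growth factor G-CSF, which read 1.38 on PBS, 0.75 on OVA, 2.56 on OVA+Alum, 3.83 on AEPS and 3.89 on OVA+AEPS, with its spot in a bright patch on the last. Csf2 read -2.19 on PBS and -2.89 on OVA+AEPS.

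Matrix proteases and their inhibitors were higher in 8 of 17 and lower in none, with a relative median of 1.04, or 0.42 with normexp and quantile normalization. Timp1, an inhibitor of metalloproteases, read 1.98 on PBS and 5.25 on OVA+AEPS (difference 3.27), and Adamts4, which cleaves aggrecan, -3.58 and -0.08 (3.51). Timp1 was also high on AEPS (5.26), OVA+Alum (4.40) and OVA (4.25). Among genes of coagulation and fibrinolysis, 4 of 19 were higher and 2 lower. Plat, the tissue plasminogen activator, read -3.41 on PBS and -1.86 on OVA+AEPS, while Thbd, the anticoagulant receptor thrombomodulin, read 0.69 and -1.03. Of adhesion genes 4 of 19 were higher and 1 lower. Vcam1, a leukocyte ligand on lining and endothelial cells, read -0.80 on PBS and 1.44 on OVA+AEPS, with 1.83 on OVA+Alum. Sele (E-selectin) was at least 5.37-fold higher.

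Enzymes that handle arginine, itaconate and tryptophan were higher in 6 of 14 and lower in 1. Nos2, the inducible nitric oxide synthase, read 1.82 on PBS, 2.55 on OVA+Alum, 3.33 on OVA, 3.94 on AEPS and 4.35 on OVA+AEPS. Acod1, which makes itaconate, read 6.78 and 9.08 on PBS and OVA+AEPS, with 1 of its spots in a bright patch on PBS. Ido2, an enzyme of tryptophan breakdown, read -4.29 and -0.75. Ch25h, which makes 25-hydroxycholesterol, read -0.99 and 2.18 and is a slide column 4 gene. Pfkfb3, an activator of glycolysis, read 4.35 and 7.02, but genes of glycolysis and the hypoxia response as a list were even, with 4 of 28 higher and 4 lower.

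No list held as many lower genes as the antiviral list held higher ones. The 66 lists covered only 93 of the 927 lower genes, against 276 of the 1244 higher ones. Families among the remaining lower genes were not looked for. The lower 15 spanned -5.04 to -2.86 and included Epha2, Plekhh3, B3gnt8, Shank3, Tac4, Slc9a3r2, Ccnd1, Ackr3, S1pr5, Cmklr1, Cyp26a1, Fut7, Zfp395 and Arl11. Epha2, a receptor for ephrins, read 2.66 on PBS and -2.38 on OVA+AEPS (difference -5.04, technical SE 0.21), with -2.20 on AEPS, -2.11 on OVA and -1.01 on OVA+Alum. PBS stood alone above the other 4 arrays, and the spot of Epha2 on OVA+AEPS lay in a bright patch. B3gnt8, a glycosyltransferase, read -0.21 on PBS, -1.23 on OVA+Alum, -1.32 on OVA, -3.53 on AEPS and -3.79 on OVA+AEPS. Here the arrays were graded, with both arrays of AEPS at the low end. Ccnd1, cyclin D1, read 2.15 on PBS and -0.97 on OVA+AEPS, and between -0.75 and -0.17 on the other arrays. Shank3, a synaptic scaffold gene, had a spot in a patch and a further probe that differed by -1.68, against -3.28 for the probe used. A further probe of Slc9a3r2 differed by -1.04 against -3.21, and the median of 2 further probes of Zfp395 was -1.25 against -2.87.

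Genes of retinoid metabolism and retinoid receptors were lower in 5 of 16 and higher in 1, with a relative median of -0.31. Cyp26a1, which degrades retinoic acid, read -1.43 on PBS, -2.44 on OVA, -4.25 on AEPS, -4.33 on OVA+AEPS and -4.89 on OVA+Alum. Dhrs3, which reduces retinal, read 6.26 and 4.15 on PBS and OVA+AEPS, and the retinoic acid receptors Rarg 3.61 and 1.81 and Rarb -1.53 and -3.81. PBS was the highest array for all 4. Sterol synthesis genes were lower in 3 of 21 and higher in none, and the relative median was -0.51. Dhcr7, an enzyme of the pathway, read -0.54 on PBS and -2.01 on OVA+AEPS, and Mvd, another, 1.77 and 0.42. Genes of cholesterol efflux and lipid handling were higher in 2 of 25 and lower in 4. Their relative median was -0.04, and its sign changed with the processing. Nr1h3, the oxysterol receptor LXR alpha, read 1.57 and -0.23, and Plin2, a coat protein of lipid droplets, 6.42 and 4.61.

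Other lower genes included an iron exporter and genes of signalling. The list of iron and haem handling genes leaned the other way, with 6 of 22 higher, 2 lower and a relative median of 0.60. Slc40a1, the iron exporter ferroportin, read 0.51 on PBS and -1.57 on OVA+AEPS, with -0.88 on AEPS, but 2.39 on OVA and still more on OVA+Alum. The 2 arrays with AEPS were below PBS and the 2 without it above. Tfeb, a regulator of lysosomal genes, was likewise low on the arrays with AEPS, at 1.36 on PBS, -0.38 on OVA+AEPS and -0.04 on AEPS against 1.02 on OVA and 1.51 on OVA+Alum, while lysosomal genes as a list were near all genes, with 2 of 25 higher and 1 lower. Notch4 read -1.76 on PBS and -4.10 on OVA+AEPS, and Hes1, a target of Notch signalling, -0.14 and -2.04, whereas the Notch ligand Dll1 was higher, at -4.86 and -1.33. Ptgir, the prostacyclin receptor, read 2.30 and 0.02, and Ptgs2, the inducible cyclooxygenase, was higher, at 1.94 and 3.37.

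Several groups held no gene past 2-fold, beside 8.30% of all genes higher and 6.18% lower. These were MHC class II presentation (0 of 11), alternative activation genes (0 of 14), proteasome subunits (0 of 24), cytosolic ribosomal proteins (0 of 31) and oxidative phosphorylation (0 of 30). At such shares a list as short as those of MHC class II and alternative activation can hold none, so their counts show no difference from all genes. Mrc1, the mannose receptor, read 1.77 on PBS and 1.32 on OVA+AEPS, and Cd74, the invariant chain of MHC class II, 9.11 and 8.74. MHC class I processing was higher in 3 of 20 and lower in none, led by Tap1, a peptide transporter, at 0.79 and 2.52. Of 4 housekeeping genes, Actb read 10.04 and 9.98, Gapdh 9.11 and 8.57, Tbp 1.44 and 1.15, and Hprt, with a spot in a bright patch, 4.28 and 4.93. The direction for Actb and Tbp turned when the arrays were scaled to the spike-in probes, and that for Actb also with quantile normalization and in the authors' deposited table.

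Markers of some cell types differed too, and in lavage RNA more cells of a type and more RNA per cell cannot be told apart. Neutrophil markers were higher in 21 of 29 and lower in 1, with a relative median of 1.59. Their summed signal was 0.952% on PBS and 1.51% on OVA+AEPS. Such percentages are of the summed signal of all genes with a value on every array, each by its brightest probe. Lcn2, a neutrophil granule protein that macrophages and lining cells also make, read 4.01 on PBS, 5.90 on OVA, 6.71 on OVA+Alum, 7.18 on OVA+AEPS and 7.63 on AEPS. Mmp8, the neutrophil collagenase, read 1.75 on PBS and 4.35 on OVA+AEPS, and was highest on OVA+Alum (5.34). Mrgpra2b read 3.61 on PBS and 6.02 on OVA+AEPS, below OVA+Alum (6.47) and AEPS (6.45). The part of a changed share of neutrophils in the differences of chemokines, proteases and interleukin 1 genes was not tested.

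Mast cell markers were higher in 9 of 19 and lower in none, with a relative median of 1.13, or 0.58 without slide column 4 genes, and a summed signal of 0.129% on PBS and 0.216% on OVA+AEPS. Cpa3, a mast cell protease, read 2.97 on PBS, 2.77 on OVA+Alum, 4.95 on OVA+AEPS, 5.05 on AEPS and 5.17 on OVA, so the arrays split by slide column, and 4 of the 9 were slide column 4 genes. Mesothelial and stromal markers were higher in 5 of 19, with Dcn (decorin) at 1.73 on PBS, 3.31 on OVA+AEPS and 3.58 on OVA+Alum. Their summed signal was 0.0133% on OVA+AEPS and 0.00830% on PBS.

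Markers of large peritoneal macrophages differed little as a list, with 3 of 30 higher and 4 lower. Their summed signal was 2.29% on PBS and 2.34% on OVA+AEPS, the largest of the 11 marker lists. Gata6, the transcription factor that defines these cells, read 2.20 on PBS, 1.96 on OVA and 0.81 to 0.83 on the other 3 arrays. B cell markers were lower in 3 of 19 and higher in none, with Cd79b, a chain of the B cell receptor, at 8.81 on PBS and 7.57 on OVA+AEPS, and a summed signal of 0.457% and 0.338%. T and NK cell markers were higher in 2 of 26 and lower in 3, beside 8.30% and 6.18% of all genes, with a relative median of -0.35. Their summed signal was 0.118% on PBS and 0.111% on OVA+AEPS. Gzmb, a cytotoxic granule protease, went against the median of the list and read 2.23 on PBS, 4.39 on OVA+AEPS and 5.43 on AEPS. Red cell and platelet markers were lower in 4 of 14. The red cell gene Alas2, an enzyme of haem synthesis, read 4.81 on PBS and 3.57 on OVA+AEPS, but 5.88 on AEPS and 2.75 on OVA.

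**Figure D4:**
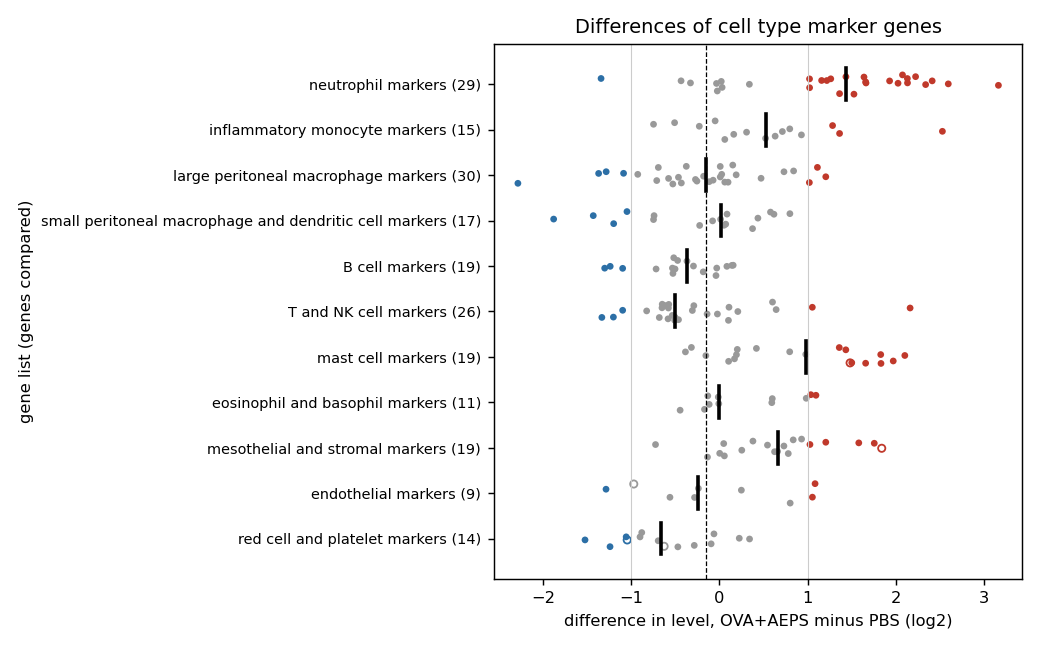
Each point is a marker gene of 1 of 11 cell types, placed by its difference (OVA+AEPS minus PBS, log2), with red and blue past 2-fold, open circles for genes well above background on 1 array, black bars for list medians and a dashed line for the median of all genes. Most neutrophil markers (21 of 29) lie past the upper 2-fold line, and large macrophage markers spread on both sides of the dashed line.

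Genes well above background on 1 of the 2 arrays have bounds only. The 8 largest bounds above were those of Aff2 (at least 37.5-fold), Fank1 (30.4), Nhlrc4 (28.5), Glb1l2 (25.2), Il33 (24.9), Aadacl4fm2 (24.4), Svop (22.9) and Tex11 (20.7). All but Il33 lay in bright patches on OVA+AEPS, and the spots of Svop, Glb1l2, Aadacl4fm2 and Fank1 stood in 1 spot column at rows 148, 149, 151 and 152. Aff2 read 0.10 on OVA+AEPS and between -7.49 and -7.01 on the 4 other arrays, none of them well above background. In the other direction the bounds were smaller, with Adm2, a peptide of the adrenomedullin family, at least 21.5-fold lower, E530001F21Rik 12.7, Slc22a16 11.3, Wap 8.53, Galnt9 8.39, Mapk10 6.80, Etohd2 6.67 and Padi3 6.35. Adm2 read -0.56 on PBS and was well above background on no other array, and none of these 8 had a spot in a patch on OVA+AEPS or PBS.

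Set against all 4 other arrays, OVA+AEPS was at least 2-fold higher than each for 145 of 15570 genes (0.931%) and lower for 35 (0.225%). The PBS array stood apart above for 202 genes (1.30%) and below for 236 (1.52%). Of the 145 genes, 95 (65.5%) lay in bright patches, and the 6 that stood furthest above, Aff2, Fank1, Nhlrc4, Aadacl4fm2, Kcnh8 and Olfr1195, all did. Leaving out patch genes and those not well above background on every array, 11 of the 145 were left. Clec2d, a ligand of an NK cell receptor, was among them, at 3.36 on PBS, 4.18 on OVA, 4.43 on OVA+Alum, 4.82 on AEPS and 5.83 on OVA+AEPS. Of the 6 genes that stood furthest below, Tlr11, Trim16, Mycl, Gm5771 and Arhgap44 were not well above background on OVA+AEPS. Tlr11, a receptor for bacterial and protozoan proteins, read -2.85 on PBS and was at least 4.41-fold lower on OVA+AEPS. Rufy4 read -0.34 on PBS and -1.45 on OVA+AEPS, against -0.39 on AEPS, 0.94 on OVA and 1.87 on OVA+Alum.

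The differences from PBS on the other injections, which share the PBS array with this comparison, are given side by side. For the antiviral effectors the median difference was 2.33 on OVA+AEPS, 2.49 on AEPS, 0.71 on OVA and 0.44 on OVA+Alum, and for the GTPases 2.50, 2.52, 1.04 and 0.67. For NF-kB genes it was 0.92, 0.88, 0.54 and 0.43, and for the interleukin 1 family 1.42, 1.83, 1.37 and 1.20. The order was different for neutrophil markers, at 1.44, 1.82, 1.21 and 2.13, and for mesothelial and stromal markers, at 0.66, 0.73, 0.22 and 1.54. OVA+Alum had the largest value for both of these. Sterol synthesis genes were at -0.66, -0.64, -0.33 and -0.24. Other lists were also largest on OVA+Alum. Among them, the tumour necrosis factor superfamily had 0.53 on OVA+AEPS and 0.88 on OVA+Alum, and signal brakes 0.48 and 0.82. Gamma chain and T helper cytokines had 0.58 and 0.80, and matrix proteases 0.89 and 0.99.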

How the data were processed

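RNA of peritoneal lavage cells was hybridised to single-colour Agilent arrays, 1 per injection. The scanner files as deposited hold intensity on a linear scale that, per the file headers, the authors made with Agilent Feature Extraction 10.7.1.1 (background-subtracted processed signal), and flags per spot (other values, 0 or 1, per the file headers). The authors' deposited series table holds log2 values with the same median (4.66) on every array, and its Pearson's r with the log2 processed signal was 0.9986 to 0.9993; how it was made is not given in the sources used here.

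Control spots (3671 per array) and outlier spots (134 to 219) were left out, log2 of the processed signal was taken, each array's 75th percentile was subtracted, and spots of a probe were averaged. Probes were named through RefSeq transcripts of GRCm38.p6; 26582 of 55681 had 1 symbol, 29099 had none and none had several. The brightest probe over the 5 arrays stood for a gene (5370 genes had several). A gene was called at a 2-fold difference. Calls were tested on simulated data. With 1 array per injection, the simulation could not take the variation among mice or hybridisations from the data. With 1 array per group no test was run, and the number of arrays limits the precision.

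For a gene below the background flag on 1 array, "at least N-fold" is the bright array's level against the higher of its own dim signal and the lowest signal well above background there. Named genes were the 15 largest differences each way, the 8 largest bounds each way, up to 4 members per list, the 6 genes each way furthest from the 4 other arrays, and Actb, Gapdh, Hprt and Tbp; others are marked as singled out or are members that make up a small count. Members, lists (66, of which 11 hold cell type markers), motifs and the naming rule were chosen with earlier results of these data known. Python 3.11.15, numpy 2.4.6, pandas 2.3.3, R 4.3.3 and limma 3.58.1 (normexp, offset 50) were used. Alternatives were other scalings, normexp, the deposited table, filters on dim probes, another probe rule, a 1.5-fold threshold, leaving out slide column 4 genes and, chosen after seeing the data, leaving out spots in bright patches. Values of some genes that the rule names are not reported here.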

Additional observations from a re-analysis of the deposited data

Results flagged for a closer look

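Probes with no gene symbol also differed between the OVA+AEPS and PBS arrays, which the gene comparison leaves out. Of 15071 such probes well above background on at least 1 of the 2 arrays, 1322 were at least 2-fold higher on OVA+AEPS (8.77%) and 895 at least 2-fold lower (5.94%). Among genes with a symbol the shares were 8.30% and 6.18%. Of these probes, 7771 are named by a genome position, with 721 higher and 482 lower.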

How the results depend on the processing

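With 1 array per injection no replicate could be left out, no paired analysis was possible because no groups share replicates, and 1 slide could not serve as a block. The numbers of higher and lower genes were 1244 and 927. They moved by over 1.5 times when the arrays were scaled to the spike-in probes (2300 and 409), with normexp and the 75th percentile (702 and 350), with normexp and quantile normalization (754 and 335) and at 1.5-fold (2300 and 2772). The share of called genes that were higher, 57.3%, became 84.9%, 66.7%, 69.2% and 45.3% in that order, 59.6% with median scaling and with quantile normalization, 53.7% with no filter on dim probes, which moved the median of all genes by 0.10, 60.3% for genes well above background on both arrays, 54.0% without slide column 4 genes (1088 and 927), which by their definition could remove only higher genes, and 54.5% without spots in bright patches. The deposited table gave 1300 and 897, and the median over a gene's probes 1226 and 920. No called named gene turned in any alternative. Of the 66 list medians relative to all genes, 15, all within 0.13 of 0, changed sign in at least 1 alternative, the furthest being endothelial markers (-0.09, and 0.34 with the median over a gene's probes). Of the other 51, 25 moved by over 1.5 times; the range was, for example, 0.42 to 1.08 for matrix proteases, 0.49 to 1.08 for CC chemokines, 0.58 to 1.33 for mast cell markers, 0.23 to 0.99 for the interleukin 6 family, 0.36 to 0.76 for gamma chain and T helper cytokines, 0.44 to 0.69 for the tumour necrosis factor superfamily, 0.50 to 0.82 for mesothelial markers, and -0.51 to -0.13 for red cell and platelet markers. Of 247 named genes called, 204 to 247 kept the call, the fewest with normexp, which shrinks differences of dim genes, and without patch spots 231 of 231 with a value did. The cause of the other moves was not tested. Genes near background are limited by the signal, and their differences are bounds.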
